A study of Mus musculus with 2 samples.

Results

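The genes described here are 10 members of the tumour necrosis factor (TNF) family, 5 ligands (Fasl, Tnfsf10, Tnf, Lta and Ltb) and 5 of their receptors (Fas, Tnfrsf10b, Tnfrsf1a, Tnfrsf1b and Ltbr). They were chosen by gene symbol from the 27998 genes counted in each library, with earlier results of these data known, and all 10 were found. Live CD45+ cells had been sorted from subcutaneous tumours of C57BL/6J mice aged 6 to 8 weeks, either wild type (WT) or CD94-deficient (CD94-KO). Each genotype gave 1 droplet-based 3′ library from 5 tumour-bearing mice, so the animals of a group cannot be told apart and no difference between the genotypes has a replicate. All values are counts of unique molecular identifiers (UMIs), and every interval is a 95% interval that covers counting error only. The tumour line, the part of the CD94 gene that was deleted and the cells in which it was deleted were not given in the sources used here. The question was which cell types held transcripts of the ligands and which of the receptors, with WT and CD94-KO side by side.

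The ligands of this family are made as trimers on the cell surface or released from it, and they act on neighbouring cells that carry the matching receptor. Fas ligand and TRAIL bind receptors with an intracellular death domain, which gathers FADD and caspase-8 and can start apoptosis, and this is a way for cytotoxic lymphocytes to kill tumour cells. TNF acts through TNFR1, which has a death domain but usually drives NF-kB, and through TNFR2, which has none. Lymphotoxin alpha joins with lymphotoxin beta in a membrane trimer that signals through the lymphotoxin beta receptor to non-canonical NF-kB.

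The members lie at 7 places in the GRCm38 (mm10) genome. Ltb (chr17:35194439-35196320, plus strand, 3 exons), Tnf (chr17:35199381-35202007, minus strand, 4 exons) and Lta (chr17:35203165-35205351, minus strand, 4 exons) are neighbours within 10913 bases of chromosome 17. Ltbr (chr6:125306571-125313885, minus strand) and Tnfrsf1a (chr6:125349362-125362484, plus strand) lie within 55914 bases of chromosome 6. Fasl (chr1:161780689-161788495, minus strand, 4 exons), Fas (chr19:34290666-34327772, plus strand), Tnfsf10 (chr3:27317028-27342427, plus strand), Tnfrsf10b (chr14:69767472-69784411, plus strand) and Tnfrsf1b (chr4:145213463-145246870, minus strand) stand alone.

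Promoter sequences are shown for Fasl, which had the largest difference between the genotypes in NK cells, and for the neighbours Tnf, Lta and Ltb, of which Tnf was highest in neutrophils and Lta and Ltb in IL-17 type T cells. They are the bases before the start of each gene (RefSeq, GRCm38.p6), 5′ to 3′ on the strand of the gene, at chr1:161788496-161788745, chr17:35202008-35202257, chr17:35205352-35205601 and chr17:35194257-35194438. Capitals mark GGAAA and its reverse complement TTTCC, the core letters that NFAT and NF-kB factors recognise.
Fasl: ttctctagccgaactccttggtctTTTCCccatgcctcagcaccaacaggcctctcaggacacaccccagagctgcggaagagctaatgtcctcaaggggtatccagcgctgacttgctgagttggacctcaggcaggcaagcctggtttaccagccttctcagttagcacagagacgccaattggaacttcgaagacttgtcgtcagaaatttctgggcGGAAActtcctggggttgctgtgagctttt
Tnf: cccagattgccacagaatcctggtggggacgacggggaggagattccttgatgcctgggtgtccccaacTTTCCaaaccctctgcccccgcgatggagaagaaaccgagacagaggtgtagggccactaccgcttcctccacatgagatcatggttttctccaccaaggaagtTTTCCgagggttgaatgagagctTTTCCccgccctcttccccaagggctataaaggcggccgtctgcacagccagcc
Lta: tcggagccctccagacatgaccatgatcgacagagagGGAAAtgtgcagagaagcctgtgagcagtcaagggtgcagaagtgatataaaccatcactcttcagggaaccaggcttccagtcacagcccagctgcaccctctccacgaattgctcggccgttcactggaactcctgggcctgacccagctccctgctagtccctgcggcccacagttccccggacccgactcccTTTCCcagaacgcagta
Ltb: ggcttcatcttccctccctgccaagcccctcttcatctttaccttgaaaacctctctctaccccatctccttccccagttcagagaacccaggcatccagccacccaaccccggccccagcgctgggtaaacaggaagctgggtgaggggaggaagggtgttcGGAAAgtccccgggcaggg
RefSeq promoters were matched for 9 of the 10 members, all but Tnfrsf10b. Within 250 bases before the start, GGAAA on either strand stood 2 times for Fasl, 3 times for Tnf, 2 times for Lta and 1 time for Ltb, and 55.6% of 32851 promoters held it. The NF-kB consensus was found in 1 of the 9 members, Ltb, as GGAAAGTCCC, where it overlaps the GGAAA. It begins 87 bases before the RefSeq start, which for Ltb lies downstream of the gene start given above, so the printed stretch ends sooner after it. It was in 7.25% of all promoters. The letters TATAAA began 29 bases before the start of Tnf and 167 bases before that of Lta, and 12.4% of promoters held them. These matches describe letters in a window and are not binding sites.

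The libraries differed in depth before any gene was compared. After filtering, the median depth was 4768.5 UMIs over 4388 WT cells and 7799 UMIs over 4574 CD94-KO cells, and 4 kept barcodes occurred in both libraries. Cells were assigned by marker gates, 8 marker genes for each of 11 lineages, that left 45.1% of the WT cells (median 827.5 UMIs) and 23.9% of the CD94-KO cells (median 2560) ungated. Although the sort was labelled as lymphocytes, 30.7% of WT and 49.3% of CD94-KO cells fell in the monocyte/macrophage gate. A non-immune gate of 121 WT and 55 CD94-KO cells with collagen genes had a Ptprc (CD45) level of 9.04 and 15.5 CPM (counts per 1000000 UMIs of the gate), against 1247 and 1741 CPM in the NK gate. Of the marker genes that no gate used, Nkg7, Prf1, Tbx21 and Txk were highest in the NK gate, while Klrk1 was highest in IL-17 type T cells and Fn1 in monocytes and macrophages rather than in the non-immune gate. Klrd1, which encodes CD94, stood at 645 CPM in WT and 317 CPM in CD94-KO NK cells. Since the deleted part is not given and 3′ counts can come from outside it, this neither checks nor contradicts the labels. Levels below are CPM of all UMIs of a gate. They are compared between gates and not between genes. Gates with at least 50 cells in both libraries (NK, T, cDC2, mregDC, monocyte/macrophage and non-immune) were compared between genotypes, and smaller gates are given as levels.

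Fasl, which encodes Fas ligand, was held by NK cells and by CD4 and CD8 T cells. In the NK gate (390 WT and 546 CD94-KO cells) it stood at 55.1 CPM (47.6 to 63.4, 194 UMIs) in WT and at 102 CPM (92.8 to 113, 415 UMIs) in CD94-KO. CD4 T cells had 53.3 CPM (35.1 to 77.6) in WT and 92.6 CPM (59.9 to 137) in CD94-KO, and CD8 T cells 43.1 CPM (29.5 to 60.9) and 83.4 CPM (58.4 to 116). The intervals of these 3 neighbours in the order overlapped in each library, so their order is not resolved. Other T cells followed with 29.8 and 25.7 CPM and regulatory T cells (Treg) with 13.2 and 20.2 CPM. IL-17 type T cells, T cells with at least 2 of a set of genes such as Il17a, Il17f and Il23r, had no Fasl UMI in either library, with a limit of 14.8 CPM in WT and 7.88 CPM in CD94-KO at 3 counts. All other gates of at least 50 cells lay at or below 4.31 CPM.

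Tnfsf10, which encodes the death ligand TRAIL, was also a lymphocyte transcript, at lower levels in NK cells than in CD4 T cells. CD4 T cells had 43.5 CPM (27.2 to 65.8) in WT and 40.8 CPM (20.3 to 72.9) in CD94-KO. NK cells had 15.6 CPM (11.8 to 20.3) and 10.9 CPM (7.89 to 14.6), below the CD4 T interval in each library. CD8 T cells lay between them with 26.9 and 23.2 CPM. Monocytes had 2.81 and 2.66 CPM, and mregDC and pDC had no UMI in either library. Mature dendritic cells enriched in immunoregulatory molecules are called mregDC here, and pDC are plasmacytoid dendritic cells.

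Tnf, the gene of TNF itself, was a myeloid transcript. Neutrophils, only 17 WT and 64 CD94-KO cells, had the highest level with 567 CPM (385 to 805) and 769 CPM (647 to 906). That rank rests on few cells, since 1 WT neutrophil held 23 of the 31 WT UMIs. In CD94-KO the 10 neutrophils with most Tnf held 77.3% of 141 UMIs. Monocytes followed with 189 CPM (180 to 197) in WT and 150 CPM (144 to 155) in CD94-KO, and macrophages had 97.4 and 136 CPM. Among T cells, the IL-17 type subset had the highest Tnf level with 69.1 CPM (37.8 to 116) and 102 CPM (72.9 to 140), and pDC had 60.4 and 71.0 CPM. Conventional dendritic cells of type 2 (cDC2) had 37.1 and 42.6 CPM, and NK cells 15.3 CPM (11.5 to 20) and 14.1 CPM (10.7 to 18.2).

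Lta and Ltb, the lymphotoxin genes that flank Tnf, had their highest levels in T cell gates. Ltb was highest in IL-17 type T cells, at 1383 CPM (1226 to 1555) in WT and 1498 CPM (1378 to 1626) in CD94-KO. Treg had 803 and 1032 CPM, CD4 T cells 484 and 645 CPM, CD8 T cells 326 and 452 CPM, and NK cells 155 CPM (142 to 168) and 138 CPM (127 to 150). Outside the lymphocytes, neutrophils had 238 CPM from 13 UMIs in WT and 104 CPM from 19 UMIs in CD94-KO. In each library the intervals of IL-17 type T cells and Treg did not overlap. Lta, the soluble partner, was much sparser, with 114 WT and 107 CD94-KO UMIs in all kept cells. Its level was 74.1 CPM (41.5 to 122) and 49.9 CPM (30.1 to 78.0) in IL-17 type T cells and 37.5 CPM (22.6 to 58.6) and 55.6 CPM (31.1 to 91.7) in CD4 T cells, which overlap. Other T cells had 39.0 CPM from 17 UMIs in WT and 3.22 CPM from 1 UMI in CD94-KO. Single cells held much of these sums, with 9 of the 17 UMIs of WT other T cells in 1 cell and 8 of the 15 UMIs of CD94-KO CD4 T cells in another.

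**Figure D1:**
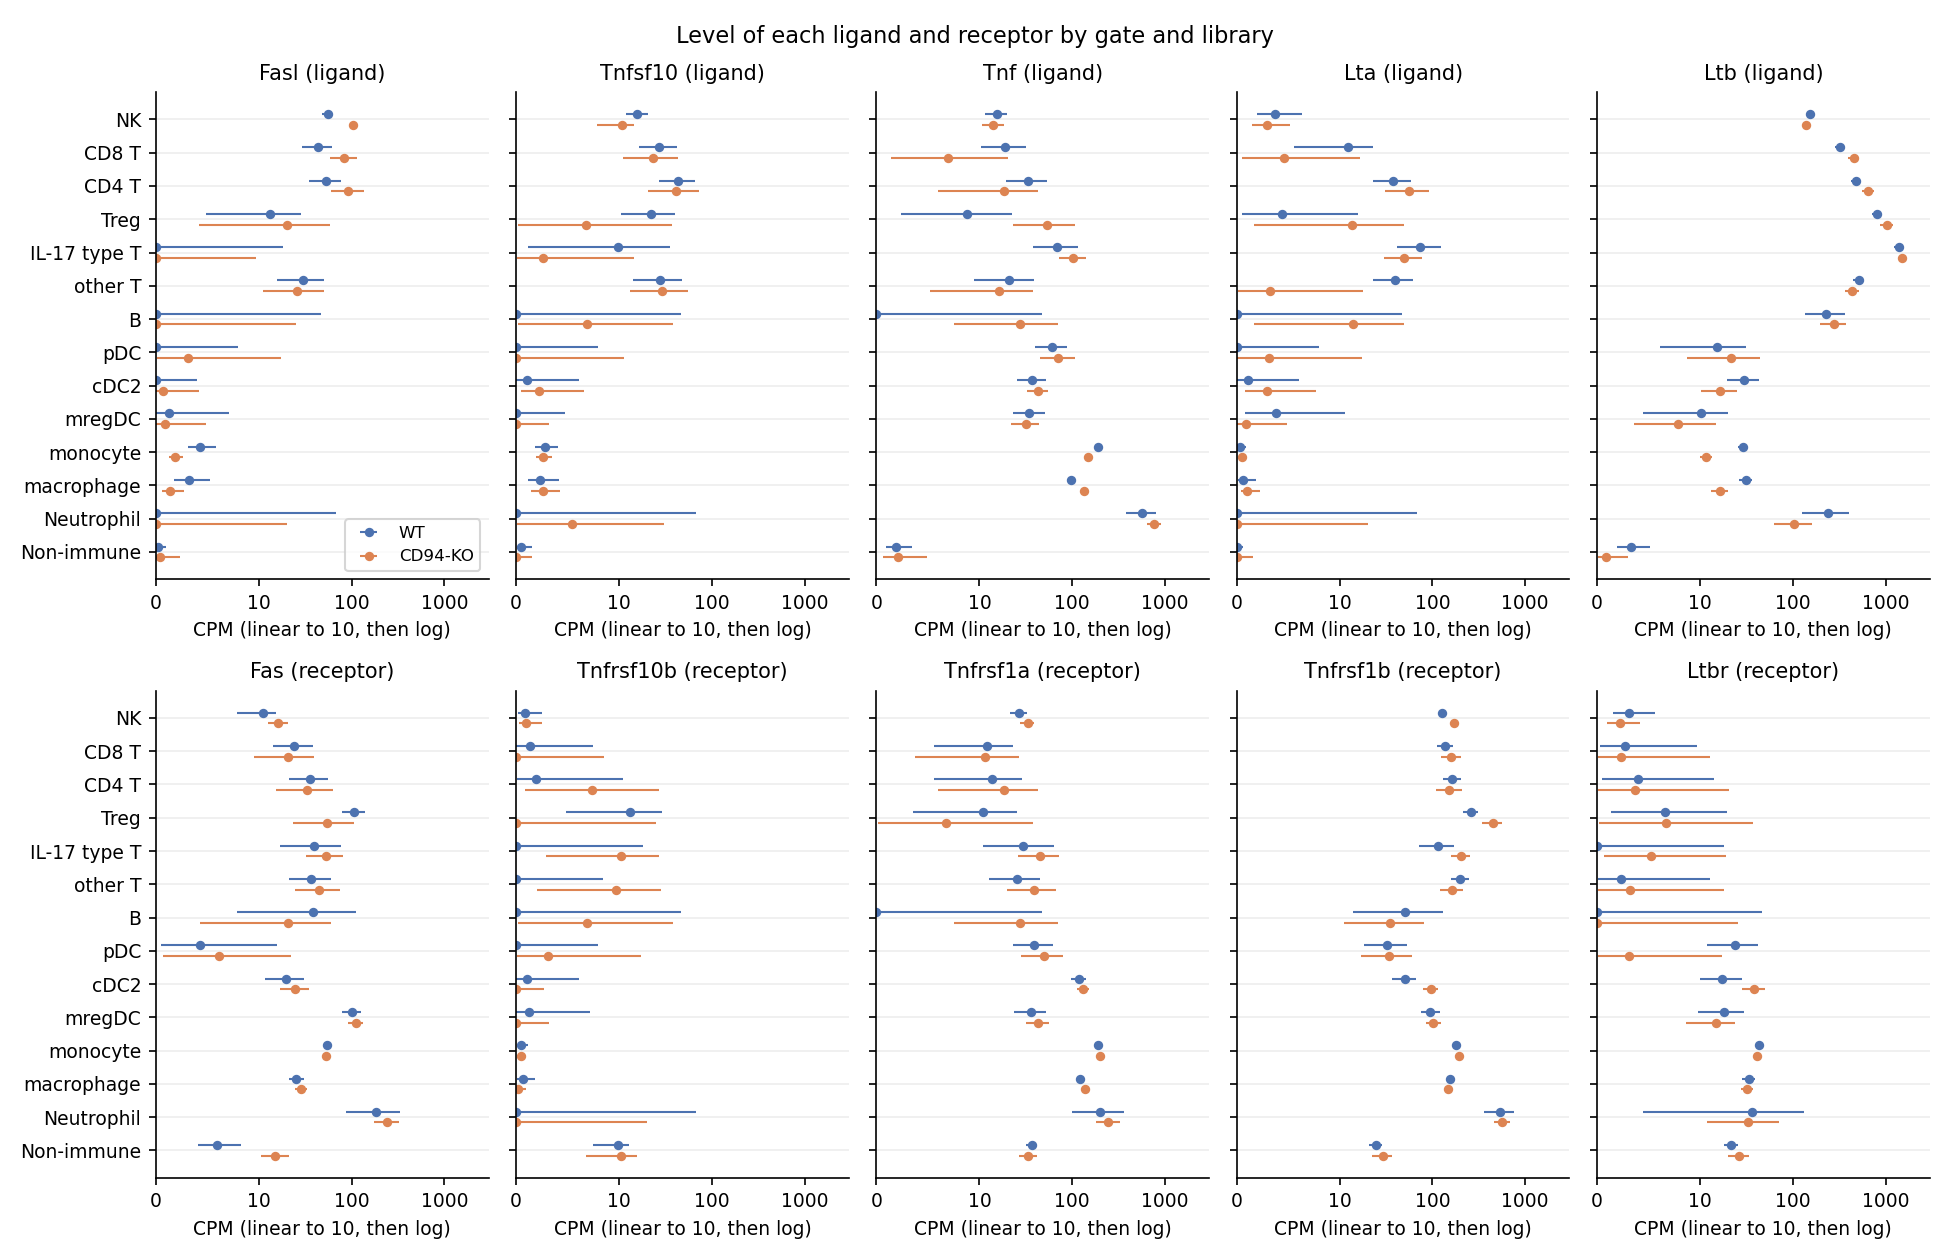
Level of each ligand (top row) and receptor (bottom row) in 14 gates, in CPM on an axis that is linear to 10 and logarithmic above, with points for the WT and CD94-KO libraries and bars for 95% counting intervals. Fasl is highest in NK, CD4 T and CD8 T cells, with no UMI in IL-17 type T cells. Tnfsf10 is highest in CD4 T cells, Tnf in neutrophils and monocytes and Ltb in T gates, and Ltbr is low in lymphocytes.

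Fas, the death receptor for Fas ligand, was highest in neutrophils, mregDC and Treg and was counted in other myeloid and T cell gates too. Neutrophils had 183 CPM (87.7 to 337) in WT and 240 CPM (174 to 322) in CD94-KO, and mregDC 100 CPM (79.2 to 125) and 111 CPM (92.4 to 132). Treg had 106 CPM (78.1 to 140) in WT from 48 UMIs and 54.0 CPM (23.3 to 106) in CD94-KO from 8 UMIs, whose intervals overlap. Monocytes had 53.9 and 52.8 CPM, with intervals below those of mregDC in both libraries. IL-17 type T cells had 39.5 and 52.6 CPM, other T cells 36.7 and 45.0 CPM and CD4 T cells 35.5 and 33.3 CPM, against 25.4 and 28.7 CPM in macrophages and 19.6 and 24.7 CPM in cDC2. NK cells, which held the most Fasl, were among the lowest for Fas with 11.1 CPM (7.88 to 15.1) and 16.3 CPM (12.6 to 20.7).

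Tnfrsf10b, the mouse TRAIL death receptor, was sparse in all gates, with 101 UMIs in WT and 64 in CD94-KO. The non-immune gate had 9.91 CPM (7.51 to 12.8, 57 UMIs) in WT and 10.5 CPM (6.79 to 15.5, 25 UMIs) in CD94-KO. This was above NK cells, with 0.852 CPM (0.176 to 2.49) and 0.988 CPM (0.269 to 2.53), and above monocytes, with 0.502 and 0.499 CPM. The non-immune cells were also far deeper, with medians of 47983 and 40034 UMIs, but CPM scales to the total of the gate. Treg had 13.2 CPM from 6 UMIs in WT and no UMI in CD94-KO, where 3 counts would be 20.2 CPM. IL-17 type T cells had no UMI in WT, where 3 counts would be 14.8 CPM, and 10.5 CPM (2.86 to 26.9) in CD94-KO from 4 UMIs. The whole T gate had 3.42 CPM (1.48 to 6.74) and 5.84 CPM (2.67 to 11.1), from 8 and 9 UMIs.

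Tnfrsf1a (TNFR1) and Tnfrsf1b (TNFR2) divided the lymphocytes from the myeloid cells in different ways. Tnfrsf1a was a myeloid transcript, with 201 and 245 CPM in neutrophils, 188 CPM (180 to 197) and 202 CPM (195 to 208) in monocytes, 121 and 139 CPM in macrophages and 118 and 130 CPM in cDC2. It stood at 26.7 and 33.1 CPM in NK cells and at 12.1 and 11.6 CPM in CD8 T cells. Tnfrsf1b was shared, with 531 and 567 CPM in neutrophils, 180 and 195 CPM in monocytes and 128 and 170 CPM in NK cells. Treg stood above all other lymphocyte gates of the same library for Tnfrsf1b with 260 CPM (215 to 312) in WT and 445 CPM (344 to 566) in CD94-KO, although the WT interval overlaps that of other T cells (160 to 246). Ltbr, the receptor for membrane lymphotoxin, was a myeloid and non-immune transcript. It had 43.1 and 40.9 CPM in monocytes, 33.3 and 32.3 CPM in macrophages and 21.6 and 26.0 CPM in the non-immune gate, against 3.12 and 2.22 CPM in NK cells and 3.42 and 3.89 CPM in T cells.

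Because cell numbers differ between gates, the gate with the highest level was not always the one that held most UMIs. Of all Fasl UMIs, NK cells held 42.9% in WT and 64.7% in CD94-KO, T cells 17.3% and 11.2%, and ungated cells 26.3% and 16.4%. Monocytes and macrophages held 72.3% and 79.6% of Tnf, 54.5% and 65.6% of Fas, 65.2% and 76.4% of Tnfrsf1a and 60.9% and 73.3% of Ltbr. T cells held 40.6% and 39.6% of Ltb and 54.4% and 36.4% of Lta. The non-immune gate, a small share of cells, held 56.4% and 39.1% of Tnfrsf10b. These shares follow the cell numbers of each gate and the ungated share, which differed between the libraries, and their part in the differences was not tested.

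**Figure D2:**
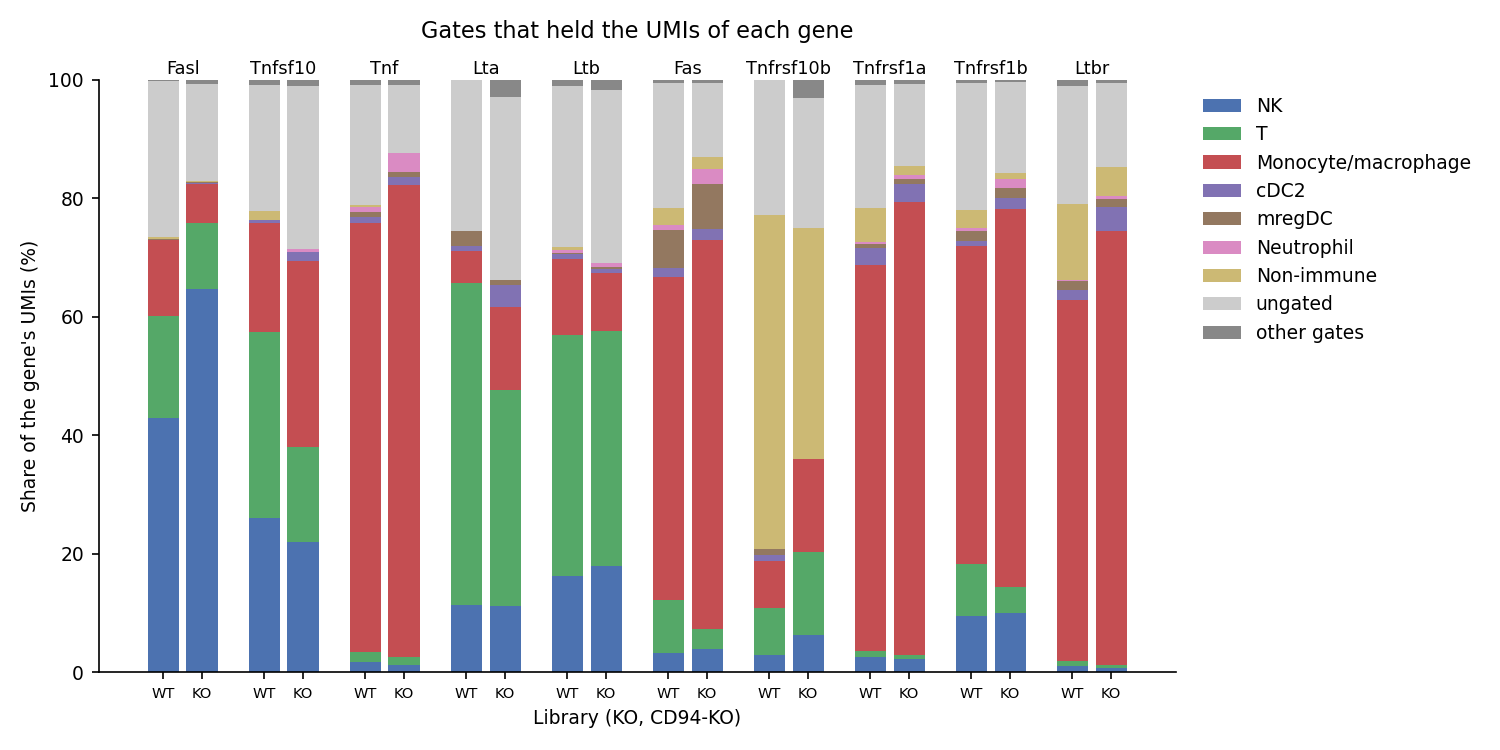
Share of the UMIs of each gene (percent) by gate, with 1 bar for the WT and 1 for the CD94-KO library. NK cells hold 42.9% and 64.7% of Fasl, and monocytes and macrophages hold 72.3% and 79.6% of Tnf.

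Between the genotypes, most pairs of a member and a gate lay within 1.5-fold, although 8 of the 10 members passed that fold in at least 1 compared gate. Of 60 pairs of a member and a compared gate, 43 had at least 20 UMIs over both libraries. A ratio of at least 1.5-fold was seen in 11 of them (25.6%), 7 higher and 4 lower in CD94-KO, and 32 lay within that fold. Over all gene and gate pairs with as many UMIs, 10.6% were higher and 5.92% lower by the same fold, 16.5% in all. The share of the members past the fold is read against this background, and with 1 library per group it has no test. Among ligands, 3 of 19 pairs were higher and 4 lower. Among receptors, 4 of 24 were higher and 0 lower.

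**Figure D3:**
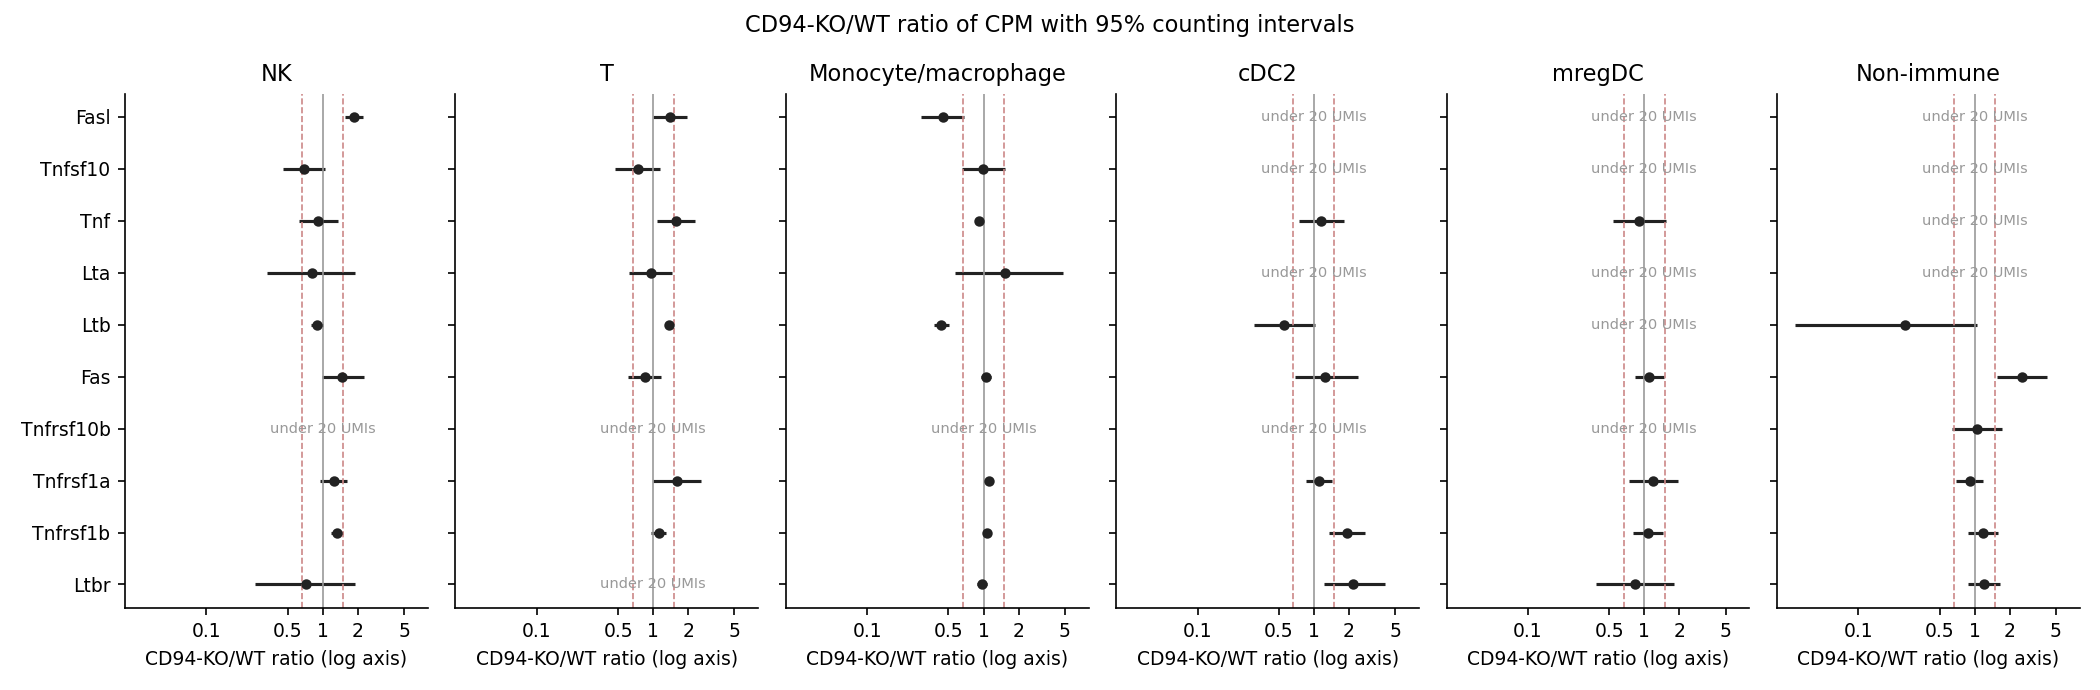
CD94-KO/WT ratio of CPM for each member in the 6 compared gates on a log axis, with points for ratios, bars for 95% counting intervals, a solid line at 1 and dashed lines at 1.5-fold either way. Fasl lies at 1.86 in NK cells and at 0.445 in monocytes and macrophages, and pairs under 20 UMIs carry no point.

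Fasl in NK cells was 1.86-fold higher in CD94-KO (1.57 to 2.22), from 55.1 to 102 CPM. In this gate 10.8% of 9531 genes were higher by 1.5-fold and 3.84% lower (14.6% in all), and the median difference of all genes was 0.09 in log2(CPM + 5). The share of NK cells with a Fasl UMI was 33.6% (28.9 to 38.5) in WT at a median of 7018.5 UMIs and 47.1% (42.8 to 51.4) in CD94-KO at a median of 5874. In mregDC, at medians of 8460 and 8246 UMIs, 1.03% and 0.704% of cells had a Fasl UMI. With each NK cell thinned to 1000 UMIs, which left out 5 WT and 6 CD94-KO cells, the shares were 6.23% (4.04 to 9.13) and 10.9% (8.42 to 13.9). A few cells did not hold the level, since the 10 NK cells with most Fasl held 17.5% of its UMIs in WT and 10.6% in CD94-KO. The other measured members of the NK gate stayed within 1.5-fold, although some passed it under the alternatives given below. Tnfrsf1b stood at 128 and 170 CPM, for a ratio of 1.33 (1.18 to 1.5), Fas at a ratio of 1.47 (0.976 to 2.25), Tnfsf10 at 0.696 (0.457 to 1.05) and Ltb at 0.892 (0.791 to 1.0).

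The NK gate was then divided by Ifng, the main cytokine of NK cells, and Gzmc, a granzyme gene. Cells with a Gzmc UMI made up 47.2% of WT and 29.7% of CD94-KO NK cells, and their median depth was 9863 and 9275 UMIs. Fasl stood at 44.4 CPM (36.0 to 54.1) and 70.3 CPM (58.6 to 83.6) in cells with a Gzmc UMI and at 49.8 CPM (40.1 to 61.3) and 116 CPM (102 to 131) in cells with an Ifng UMI. In cells with neither it stood at 71.7 CPM (51.7 to 96.9) and 106 CPM (86.7 to 128). Cells without an Ifng UMI had 60.6 CPM (49.5 to 73.4) and 86.1 CPM (73.1 to 101). The CD94-KO value was the higher in each division, with overlapping intervals in cells with neither and in cells without an Ifng UMI. Ltb had another pattern, with 155 and 191 CPM in cells with a Gzmc UMI and 173 CPM (141 to 210) and 82.1 CPM (65.4 to 102) in cells with neither. Tnfsf10 in cells with neither was 13.7 CPM from 8 UMIs and 3.96 CPM from 4 UMIs. Summed genes of nuclear and rRNA-linked transcripts stood at 41400 CPM in WT and 50570 CPM in CD94-KO NK cells, T cell markers at 121 and 167 CPM with Trat1 at 0, and 78.7% and 76.0% of NK cells held a UMI of a T or monocyte/macrophage marker. In the cells without such a UMI, 83 WT and 131 CD94-KO, Fasl had a ratio of 2.64, from 54.6 to 144 CPM. Tnfrsf1b had a ratio of 1.71 and Ltb of 0.679 in these cells.

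**Figure D4:**
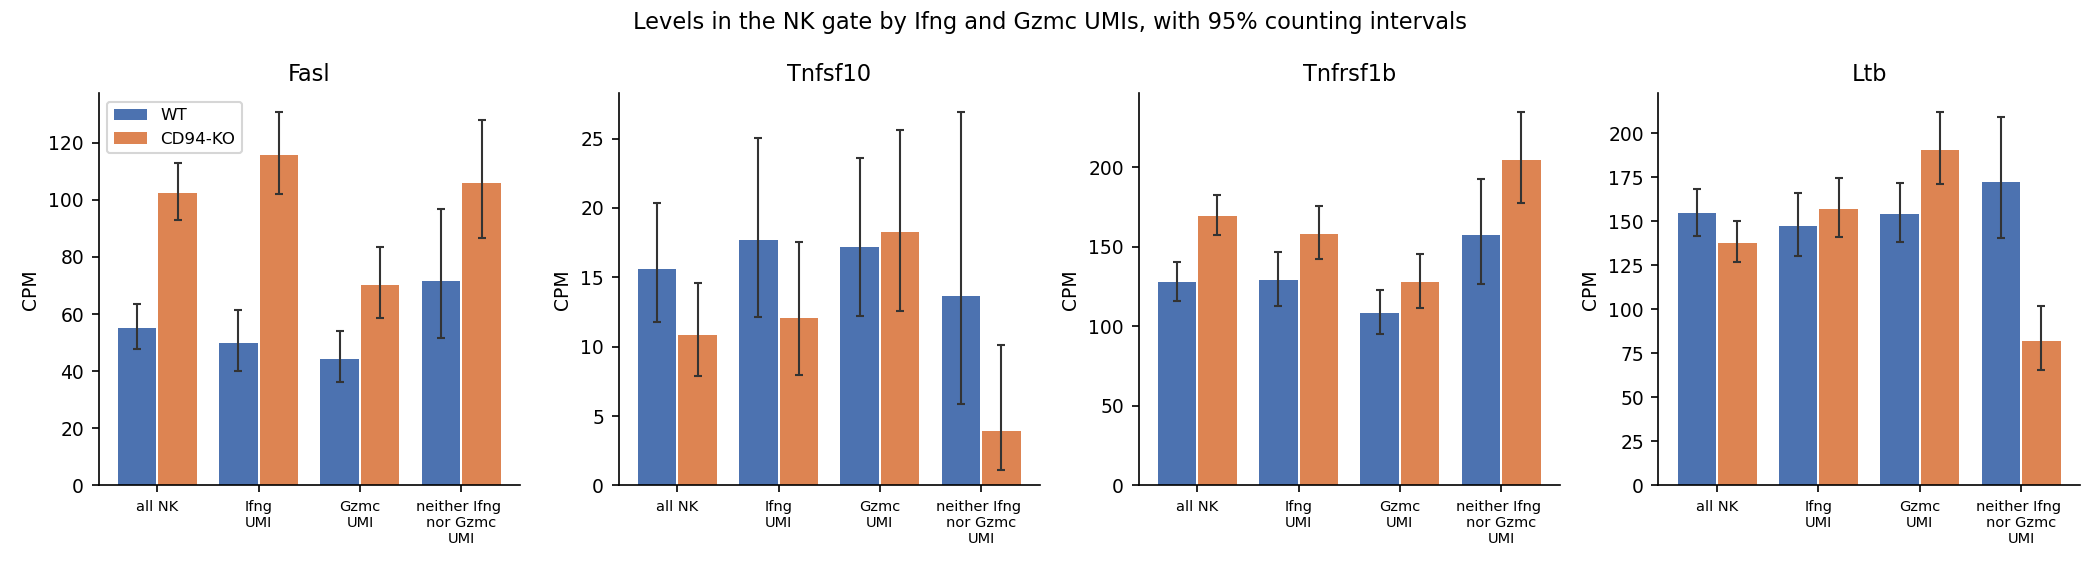
Level of Fasl, Tnfsf10, Tnfrsf1b and Ltb (CPM) in all NK cells and in those with an Ifng UMI, a Gzmc UMI or neither, with bars for each library and 95% counting intervals. Fasl is higher in CD94-KO in each division, while Ltb is lower in cells with neither, at 173 CPM in WT and 82.1 CPM in CD94-KO.

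In monocytes and macrophages, Fasl and Ltb were lower in CD94-KO. Ltb stood at 29.5 CPM (26.8 to 32.4) in WT and 12.8 CPM (11.4 to 14.3) in CD94-KO, for a ratio of 0.433 (0.372 to 0.502), and Fasl at 3.96 and 1.76 CPM, for a ratio of 0.445 (0.292 to 0.674) that was 0.734 with no doublets removed and 0.254 with each cell weighed the same. In this gate 3.24% of 11501 genes were higher by 1.5-fold and 7.07% lower (10.3% in all), and 1 of the 9 measured members was higher and 2 lower. Lymphocyte markers were also lower in the CD94-KO cells of this gate. The 8 T cell markers summed to 118 CPM in WT and 45.3 CPM in CD94-KO, and the 8 NK markers to 157 and 71.0 CPM. A UMI of either list, with the NK marker Gzma left out, was found in 35.9% of WT and 20.2% of CD94-KO cells. Cells without such a UMI could still hold Gzma. Among cells without such a UMI, 865 WT and 1799 CD94-KO, Ltb stood at 9.09 CPM (7.10 to 11.5) and 2.97 CPM (2.23 to 3.89), and Fasl at 0.768 CPM from 6 UMIs and 0.225 CPM from 4 UMIs. Among cells with such a UMI, Ltb stood at 52.8 CPM (47.5 to 58.5) and 41.7 CPM (36.7 to 47.2) and Fasl at 7.60 and 6.31 CPM. Most Fasl UMIs of the gate, 52 of 58 in WT and 38 of 42 in CD94-KO, were thus in cells that also held a lymphocyte marker UMI. Monocyte and macrophage cells with a Fasl UMI had median depths of 18627 and 17880 UMIs, against 9388 and 9685.5 in the other cells of the gate.

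The transcripts that monocytes and macrophages hold in number differed less. Tnf stood at 159 CPM (153 to 166) and 146 CPM (141 to 151), for a ratio of 0.917 (0.870 to 0.967), and 52.5% and 51.4% of cells had a UMI. Its direction differed between the subsets, with 189 and 150 CPM in monocytes but 97.4 and 136 CPM in macrophages. Tnfrsf1a had a ratio of 1.12 (1.07 to 1.18), Tnfrsf1b 1.07 (1.02 to 1.12), Fas 1.05 (0.951 to 1.16) and Ltbr 0.971 (0.875 to 1.08). Lta passed the fold with a ratio of 1.54 (0.563 to 4.83), from 6 and 15 UMIs. Its interval includes 1, and the ratio was 0.513 with no doublets removed and 0.974 in classes from joint clustering.

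**Figure D5:**
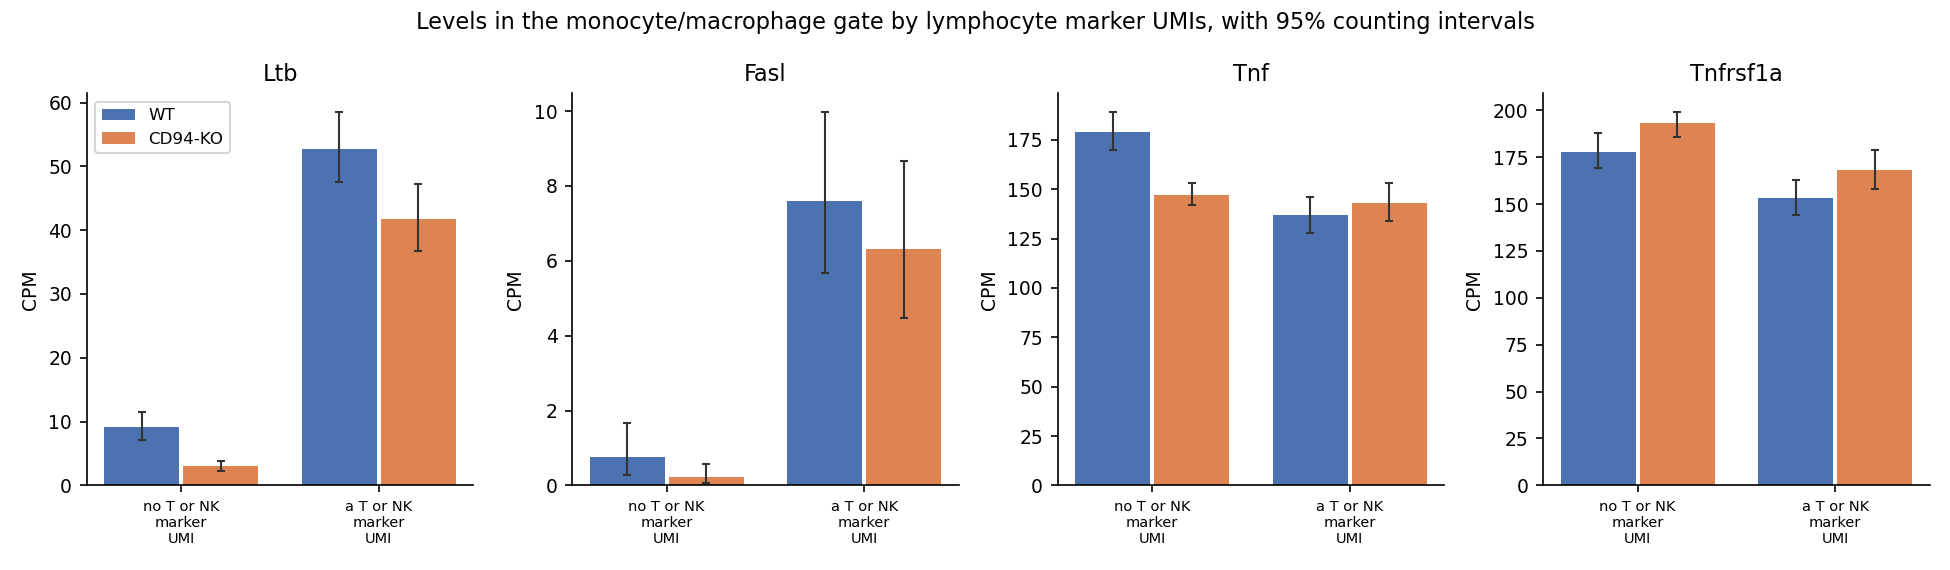
Level of Ltb, Fasl, Tnf and Tnfrsf1a (CPM) in cells of the monocyte/macrophage gate without and with a UMI of a T or NK marker (Gzma left out), with bars for each library and 95% counting intervals. Ltb and Fasl are several-fold higher in the cells with such a UMI in both libraries, whereas Tnfrsf1a is lower in them.

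In the T gate (299 WT and 222 CD94-KO cells), Tnf and Tnfrsf1a passed the fold. Tnf stood at 24.8 CPM (18.8 to 32.0) and 38.9 CPM (29.7 to 50.1), for a ratio of 1.57 (1.08 to 2.29), and Tnfrsf1a at 16.2 and 26.0 CPM, for a ratio of 1.60 (1.0 to 2.56). In this gate 9.23% of genes were higher and 7.92% lower by the same fold (17.2% in all), and 2 of the 8 measured members were higher and 0 lower. The make-up of the gate differed, since IL-17 type T cells, which had the most Tnf of any T subset, were 35 of the WT and 66 of the CD94-KO cells. With the 5 T subsets weighed the same, 0 of these 2 ratios reached 1.5. In T cells without a UMI of an NK marker (Gzma left out) or monocyte/macrophage marker, the ratio was 1.25 for Tnf and 0.936 for Tnfrsf1a. Tnf was not higher in every subset. It stood at 18.9 CPM from 14 UMIs and 6.95 CPM from 3 UMIs in CD8 T cells, at 33.6 CPM from 17 UMIs and 18.5 CPM from 5 UMIs in CD4 T cells and at 20.6 and 16.1 CPM in other T cells, but at 8.82 CPM from 4 UMIs and 54.0 CPM from 8 UMIs in Treg. Ltb had a ratio of 1.37 (1.27 to 1.49), from 579 to 796 CPM, and Fasl of 1.40 (1.0 to 1.96), from 33.3 to 46.7 CPM. The Fasl ratio passed the fold at 1.59 with the subsets weighed the same, 1.89 under a stricter gate and 1.82 without UMIs of those markers, and was 1.10 without the 10 cells with most Fasl.

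In cDC2 (68 WT and 111 CD94-KO cells), both TNFR2 and the lymphotoxin beta receptor were higher in CD94-KO. Tnfrsf1b stood at 50.1 CPM (36.7 to 66.9) and 95.6 CPM (79.8 to 114), for a ratio of 1.91 (1.35 to 2.73). Ltbr stood at 17.4 CPM (9.97 to 28.3) and 38.1 CPM (28.4 to 50.1), for a ratio of 2.19 (1.23 to 4.11) that turned to 0.887 under a stricter gate and was 4.43 without the 10 cells with most Ltbr. Ltb was lower, at 29.4 and 16.4 CPM with a ratio of 0.559 (0.303 to 1.02), and 13 of its 27 WT UMIs were in 1 cell. In classes from joint clustering the ratio was 0.873 for Ltb and 1.19 for Ltbr. In this gate 16.5% of genes were higher and 6.13% lower by the same fold (22.6% in all), the highest share called higher of the compared gates. T cell markers summed to 58.9 CPM in WT and 14.2 CPM in CD94-KO cDC2, with Trat1 and Ubash3a at 0 in both. The 8 mregDC markers summed to 270 and 668 CPM, with Nudt17 and Apol7c at 0 in both, the monocyte/macrophage markers to 374 and 497 CPM and the neutrophil markers to 31.6 and 66.5 CPM. Their part in the Tnfrsf1b, Ltbr and Ltb values was not tested. In mregDC none of the 5 measured members passed the fold, with ratios from 0.825 for Ltbr to 1.19 for Tnfrsf1a, where 10.9% of genes were higher and 8.83% lower (19.8% in all).

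In the non-immune gate, Fas stood at 5.91 CPM (4.09 to 8.26) and 15.1 CPM (10.6 to 20.9), for a ratio of 2.55 (1.55 to 4.21). The 10 cells with most Fas held 61.8% of its UMIs in WT and 88.9% in CD94-KO, where 1 cell held 13 of 36. Without those 10 cells of each library the ratio was 0.893, for which no minimum of UMIs was set. Ltb was lower with a ratio of 0.254 (0.0287 to 1.05), from 19 and 2 UMIs. In this gate 15.8% of genes were higher and 3.06% lower (18.9% in all). Tnfrsf10b, which this gate held at the highest level among compared gates, had a ratio of 1.06 (0.634 to 1.72).

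Fasl and Fas were counted together in few NK cells. Of NK cells with a Fasl UMI, 4.58% in WT and 8.95% in CD94-KO also had a Fas UMI, against 9.27% and 8.30% of NK cells without one. Cells with a Tnfsf10 UMI had an Ltb UMI in 82.5% and 68.8%, against 42.9% and 32.3% of the other NK cells, but their median depth was 12814 and 13565.5 UMIs against 6794.5 and 5710. In monocytes and macrophages, Tnf and its receptors were often counted in the same cell. Of the cells with a Tnf UMI, 76.8% and 76.2% had a Tnfrsf1a UMI and 70.6% and 75.7% a Tnfrsf1b UMI, against 52.9% and 64.8%, and 54.1% and 64.3%, of the cells without Tnf. The cells with Tnf were again deeper, at medians of 11158 and 10603.5 UMIs against 6539 and 8758. In T cells, 97.6% of WT and 100% of CD94-KO cells with an Lta UMI had an Ltb UMI, against 81.4% and 84.3% of the others.

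The genes whose pattern was most like that of a member were taken from 7970 genes over 12 profiles, the 6 compared gates in each library. These profiles share libraries and differ mainly by lineage, so the correlations are descriptions. Fasl was closest to Nlrc3, Rundc3b and Sytl3, with Pearson r of 0.991 each. Tnfsf10 was closest to Il27ra (0.990), Ltb to Cbr1 (0.987), Lta to Plcb4 (0.959) and Tnf to Ap2s1 (0.977). Among receptors, Fas was closest to Zfp36l1 (0.959), Tnfrsf10b to Nav2 (0.978), Tnfrsf1a to Hexa (0.976), Tnfrsf1b to Gak (0.979) and Ltbr to App (0.981). Between members, Tnfsf10 and Ltb had r of 0.96, Fasl and Tnfsf10 0.89, Lta and Ltb 0.87, and Fasl and Ltbr -0.88. The neighbours Tnf and Lta had r of 0.06, and Tnf and Ltb 0.15.

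The genes that act below these receptors were described from 5 lists. In NK cells the death-inducing complex list had 3 of 16 measured genes higher and 0 lower, with a median difference of 0.11 in log2(CPM + 5) beside 0.09 for all genes of the gate. The counts of these lists stand beside the 10.8% of all NK genes that were higher and the 3.84% that were lower. The 3 were Casp6, an executioner caspase (6.25 and 11.4 CPM, ratio 1.82, 1.07 to 3.17), Apaf1, the scaffold of the apoptosome (15.9 and 24.4 CPM, ratio 1.54, 1.10 to 2.17), and Fadd, the adaptor of Fas (ratio 1.53, 0.874 to 2.76). In the list of the TNFR1 complex and canonical NF-kB, 2 of 18 were higher and 0 lower (median 0.21). These were Ripk1, the kinase of that complex (30.7 and 48.4 CPM, ratio 1.58, 1.24 to 2.02), and Traf5 (ratio 1.64, 0.902 to 3.09). In the lymphotoxin beta receptor list, 1 of 4 was higher, Traf3, which holds back non-canonical NF-kB (15.1 and 26.7 CPM, ratio 1.77, 1.26 to 2.51). Of NF-kB feedback and TNF target genes, 1 of 12 was lower and 0 higher, Tnfaip2 (40.9 and 24.2 CPM, ratio 0.592, 0.453 to 0.770). Of other death receptors, decoys and processing genes, 3 of 8 measured were higher, namely Tnfsf14, the ligand LIGHT (8.52 and 16.8 CPM, ratio 1.97, 1.27 to 3.14), Tnfrsf21, a death receptor (ratio 1.96, 0.809 to 5.2) and Rhbdf2, a regulator of the protease that sheds TNF (ratio 1.5, 0.679 to 3.49).

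Monocytes and macrophages, which held most Fas, Tnfrsf1a, Tnfrsf1b and Ltbr UMIs, differed in few of these genes. All 16, 18, 4 and 12 genes of the first 4 lists lay within 1.5-fold, with medians from -0.14 to -0.03 beside -0.02 for all genes. Over all genes of this gate, 3.24% were higher and 7.07% lower. In the list of other death receptors, Tnfrsf26, a relative of the mouse TRAIL decoy receptors, was higher (3.14 and 4.91 CPM, ratio 1.56, 1.10 to 2.25), and Tnfrsf25, a death receptor of T cells, was lower (1.16 and 0.378 CPM, ratio 0.325, 0.128 to 0.772). Tnfrsf25 had 26 UMIs over both libraries. The T cell markers of this gate were also lower in CD94-KO, at 118 and 45.3 CPM, and their part in the Tnfrsf25 value was not tested. In cDC2, Cxcl10, a chemokine gene that interferon and TNF induce, stood at 268 CPM in WT and 891 CPM in CD94-KO, for a ratio of 3.32 (2.90 to 3.83). The mregDC markers given above were also higher in these cells, and their part in the Cxcl10 value was not tested. Cxcl10 was the 1 of 12 target genes past the fold there, and the median of that list was 0.32 beside 0.07 for the gate. Over all genes of the cDC2 gate, 16.5% were higher and 6.13% lower. Genes past the fold in cDC2 also included Rnf31 and Tnfrsf21, higher, and Tradd, lower, each from 20 to 22 UMIs. In mregDC the TNFR1 list had 4 of 18 higher and 2 lower (median 0.14 beside 0.02). Among the higher were Chuk, a kinase of the IKK complex (28.3 and 50.6 CPM, ratio 1.79, 1.08 to 3.07), Tradd (ratio 1.95, 0.844 to 5.05) and Traf5 (ratio 1.93, 0.724 to 5.96). The intervals of Tradd and Traf5 include 1. Rbck1, a subunit of the linear ubiquitin ligase, was lower (61.6 and 33.2 CPM, ratio 0.538, 0.342 to 0.841). Casp9 was the 1 of 12 measured genes of the death-inducing complex past the fold in mregDC, at a ratio of 1.65 (0.650 to 4.71). Over all genes of the mregDC gate, 10.9% were higher and 8.83% lower. Handling and heat-shock genes summed to 3138 CPM in WT and 5412 CPM in CD94-KO mregDC, with 5 of 10 higher, and their part in these values was not tested.

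In T cells the target list had 2 of 12 genes higher and 0 lower, the death-inducing complex list 0 of 14 higher and 1 lower, and the TNFR1 list 0 of 18 higher and 1 lower. These counts stand beside the 9.23% of all genes of the T gate that were higher and the 7.92% that were lower. The list of other death receptors had 1 of 6 measured genes higher, with a median of 0.29 beside 0.02 for all genes of the gate. In the non-immune gate, the TNFR1 list had 5 of 18 genes higher and 1 lower (median 0.31 beside 0.12), the lymphotoxin beta receptor list 1 of 4 higher, and the other 3 lists none past the fold. The shares over all genes of that gate were 15.8% higher and 3.06% lower. Nuclear and rRNA-linked transcripts summed to 15170 CPM in WT and 22640 CPM in CD94-KO there and the 8 non-immune markers to 2890 and 4879 CPM, and their part in these counts was not tested. Scaling by trimmed means instead of gate totals would lower log2 ratios of CPM by 0.18 in the non-immune gate and by 0.11 in NK cells. Differences in log2(CPM + 5) would fall by less than that, most clearly for genes of a few CPM.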

How the data were processed

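The deposited values are raw counts of UMIs per gene and barcode. Per the file headers, Cell Ranger 5.0.0 made them, and per the labels' protocols only barcodes of cells had been retained. The mm10 build and Seurat 4.0, with no role stated, are named in the submitters' processing notes. The release of the gene annotation is not given in the sources used here.

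The libraries held 5358 WT and 5175 CD94-KO barcodes with 40261366 and 46107433 UMIs, and 8 barcodes occurred in both. Filters required 500 UMIs and 300 genes per barcode and a mitochondrial share under 10%. The automatic threshold of Scrublet (scanpy 1.11.5) marked 1 WT and 0 CD94-KO cells and so had not worked, and the top 4% by score were left out (183 and 191 cells). A cell took the lineage with the most of its 8 markers detected, with at least 3 detected and 2 more than any other lineage. T cells were divided by Foxp3, Cd8a or Cd8b1, Cd4 and IL-17 type genes, and macrophages from monocytes by C1q genes against Ly6c2, Plac8 and Hp.

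UMIs were summed per library and gate and given as counts per 1000000 UMIs of the gate total (CPM), with exact Poisson intervals, exact Clopper-Pearson intervals for shares of cells and exact conditional binomial intervals for ratios (95%). UMI sums of genes were not scaled by length. No test was made and no p-value is given, since each group had 1 library. A ratio counted as different in size at 1.5-fold with at least 20 UMIs over both libraries. A limit for a gene with no UMI was 3 counts per library and gate. The ratio calculation was tested on simulated data. Analyses ran in Python 3.11.15 with numpy 2.4.6, scipy 1.17.1 and pandas 2.3.3.

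The members and lists were chosen with earlier results of these data known. All members were named. Of the listed pathway genes, those past 1.5-fold in the NK, monocyte/macrophage, cDC2 and mregDC gates were named, at most 4 per list and gate, largest first, and 1 such gene is not reported here. The rule also covered CD8 T, CD4 T and Treg gates, which had under 50 cells in a library and were not compared. The lists held 16 genes of the death-inducing complex, 18 of the TNFR1 complex and canonical NF-kB, 4 of the lymphotoxin beta receptor and non-canonical NF-kB pathway, 12 of NF-kB feedback and TNF targets, 12 of other death receptors, decoys and ligand processing, 10 of handling and heat shock, and 4 of nuclear and rRNA-linked transcripts. Likeness used genes at 20 CPM or more in at least 1 profile. Alternatives were classes from joint clustering (2000 variable genes, 30 principal components, 15 neighbours, Leiden resolution 2.0, clusters in which at least 70% of gated cells carried 1 gate), a stricter gate (4 markers, a lead of 3), cells of at least 1000 UMIs, no doublet removal, a mitochondrial limit of 20%, scaling by trimmed means (TMM), equal weight per cell, leaving out the 10 cells with most UMIs of a gene, a minimum of 50 UMIs and a pseudocount of 1 CPM in place of 5. Added after seeing the data were cells without UMIs of other lineages' markers, T subsets weighed the same, and NK cells without a Gzmc UMI. The first left out NK cells with a T or monocyte/macrophage marker UMI and T cells with an NK or monocyte/macrophage marker UMI. In the other compared gates it left out cells with a T or NK marker UMI. Gzma was not used as an NK marker here, and markers of the remaining lineages were not used in any gate. Gene coordinates came from GENCODE M21 and promoters from RefSeq.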

Additional observations from a re-analysis of the deposited data

Results flagged for a closer look

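Fasl had opposite directions in different gates. The CD94-KO/WT ratio was 1.86 in NK cells and 0.445 in monocytes and macrophages, both past 1.5-fold with intervals that exclude 1. The difference between the gates was not tested, since each genotype had 1 library. In monocytes and macrophages the level was 3.96 and 1.76 CPM, and the summed NK markers in that gate stood at 157 and 71.0 CPM.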

How the results depend on the processing

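Of the 11 ratios past 1.5-fold, 11 stayed past it in the same direction with cells of at least 1000 UMIs and under TMM scaling. The count was 10 with a mitochondrial limit of 20%, 10 with each cell weighed the same and 7 in classes from joint clustering. With no doublets removed 10 were past the fold, but 1 of these, Lta in monocytes and macrophages, was past it in the other direction (0.513). Where fewer of the 11 kept 20 UMIs, 5 of 8 stayed past it under the stricter gate and 4 of 6 without UMIs of other lineages' markers. The latter left cells with mregDC or neutrophil markers in place. Without the 10 cells with most UMIs, 8 of 9 stayed past it. Ltb in cDC2 and Lta in monocytes and macrophages had no ratio there, since no WT UMI was left. Fasl in NK cells ranged from 1.72 to 1.98 over the 8 alternatives listed for it at the start, and was 2.64 in cells without UMIs of other lineages' markers. Ltb in monocytes and macrophages ranged from 0.334 to 0.507 over its 8. The count of higher pairs, 7, was 4 in classes from joint clustering and 13 without the 10 cells with most UMIs, and the count of lower pairs, 4, was 7 in the former and 2 at a minimum of 50 UMIs. For the 13, only 39 of the 43 pairs kept a WT UMI, and pairs without one were counted as higher. Of the 11, those that changed direction were Tnfrsf1a in T cells without UMIs of other lineages' markers (0.936), Ltbr in cDC2 under the stricter gate (0.887), Lta in monocytes and macrophages in classes from joint clustering (0.974) and with no doublets removed (0.513), and Fas in the non-immune gate without the 10 cells with most UMIs (0.893). Without UMIs of other lineages' markers, Lta in T cells was 0.546 and Tnf in monocytes and macrophages 0.822. Ltb in T cells was 1.17 under the stricter gate and 1.16 with T subsets weighed the same, and Fas in monocytes and macrophages was 0.949 with each cell weighed the same. Other ratios within 1.5-fold that crossed 1 and moved by more than counting error were Tnfsf10 in NK cells (1.12) and Tnf in cDC2 (0.733) in classes from joint clustering, Fas (1.41) and Tnfrsf1b (0.811) in T cells without UMIs of other lineages' markers, and Tnfrsf1a in the non-immune gate with each cell weighed the same (2.19). Fasl in monocytes and macrophages was 0.254 with each cell weighed the same, and in T cells it passed the fold at 1.59 with subsets weighed the same, 1.89 under the stricter gate and 1.82 without UMIs of other lineages' markers. Ltbr in cDC2 was 4.43 without the 10 cells with most UMIs. Ratios within 1.5-fold that passed it and moved by more than counting error included 3 in NK cells. These were Tnfrsf1b without UMIs of other lineages' markers (1.71), and Tnfsf10 (0.379) and Ltb (0.615) without a Gzmc UMI. In T cells they included Fas under the stricter gate (0.503) and Tnfsf10 without UMIs of other lineages' markers (0.294). The cause of these differences was not tested. Pairs under 20 UMIs under an alternative gave no ratio, except without the 10 cells with most UMIs. There a ratio was given for any pair that kept a WT UMI, however few UMIs were left. Depth limits most values from few UMIs, such as Tnfrsf10b outside the non-immune gate and Lta within T subsets, where intervals are wide. No paired analysis was possible because each genotype had 1 library.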

Other observations

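For 3 of the smallest gates and for the ungated cells, levels are given here as values in WT and CD94-KO, with no comparison. Upper limits for a count of 0 are 3 UMIs of the gate total and cover counting error only. B cells, 10 in WT and 26 in CD94-KO, had an Ltb level of 229 CPM (136 to 363) and 276 CPM (197 to 376), from 18 and 40 UMIs, and no Fasl UMI, which allows up to 38.2 CPM in WT and 20.7 CPM in CD94-KO. The 8 WT and 9 CD94-KO cells of conventional dendritic cells of type 1 (cDC1) had a Tnfrsf1a level of 82.4 CPM (43.9 to 141) and 136 CPM (72.7 to 233), from 13 UMIs each, and no Fas UMI, which allows up to 19.0 CPM and 31.5 CPM. Their Ltbr stood at 0 UMIs in WT, with the same limit as Fas, and at 6 UMIs in 5 cells in CD94-KO. Mast cells and basophils, 4 and 20 cells, had 2 Fasl UMIs in all, both in CD94-KO, and the 0 in WT allows up to 81.3 CPM. The ungated cells had Fasl at 15.4 and 14.9 CPM, Tnf at 84.4 and 71.1 CPM and Ltb at 117 and 128 CPM, with a monocyte/macrophage marker sum of 1550 and 1612 CPM and an NK marker sum of 695 and 393 CPM.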
